A study of Mus musculus with 12 samples.

Results

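The genes described here are 38 markers of macrophages and other myeloid cells, taken by name as markers of monocytes and of resident, inflammatory and lipid-associated macrophages. All 38 were found by symbol among the 30389 genes measured in mouse muscle, and all 38 passed the filter on low values described below. Of these, 23 passed in both groups, 14 through their level in anomalies alone and 1, Timd4, through normal muscle alone, so that those 14 had to stand higher in anomalies. Messenger RNA was sequenced in 12 libraries from 6 mice of the C57BL/6 strain, 3 with vascular anomalies in muscle and 3 with normal muscle. Mice of the anomaly group carried VEC-Cre, the SB Transposase and onc3. VEC-Cre is Cre recombinase driven by the VE-cadherin promoter, which is active in endothelial cells, and the Sleeping Beauty (SB) transposase moves the onc3 transposon so that it can land in or near genes. Mice of the normal group carried the SB Transposase and onc3 without VEC-Cre, so both groups shared transposase and transposon. Ages were not given in the labels used here. The replicate is the animal (n = 3 in each group), since both libraries of a mouse came from its own tissue, as 2 pieces in 5 mice and as 2 lesions in anomaly animal 2. The labels do not say whether these were separate litters or cohorts. The p-values of anomalies against normal muscle thus measure only the spread between these animals.

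Macrophages arise from embryonic precursors or from blood monocytes, and they depend on colony-stimulating factor 1 acting through its receptor. In resting skeletal muscle they lie in the connective tissue and around vessels, where they take up debris, iron and lipoproteins through scavenger receptors. Injured or growing tissue recruits monocytes, which become macrophages whose genes differ with the signals they meet, from microbial products to cytokines such as interleukin 4 or to lipid taken up from dying cells.

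Recovered depth was 9650550 to 18476461 reads in 5 anomaly libraries and 17380211 to 32155879 reads in the 6 normal libraries, but 254404 reads in piece 1 of anomaly animal 1. In that library 1 read was worth 1.85 CPM (reads scaled to library size, with a correction for composition), so its low values are coarse. Where leaving this library out moves a printed level of animal 1 by over 1.5 times, the level in piece 2 alone is given beside it. With animal 1 by piece 2 alone, the calls of anomalies against normal muscle did not change for any of the 38 genes. Skeletal muscle markers, the defining genes of the labelled tissue, summed to 1202 (2126 in piece 2 alone), 373 and 28478 CPM in the 3 anomaly animals and to 255108 to 313755 CPM in the normal libraries, with 8 of 10 genes lower and 0 higher in anomalies. Endothelial markers rose in 9 of 10 genes and summed to 3353, 5094 and 6120 CPM in the 3 anomaly animals, against 325 to 482 CPM in the normal libraries. The part of these shifts in tissue make-up in the values below was not tested. In bulk tissue, fewer cells of a type and less RNA per cell cannot be told apart, and the same holds for more cells and more RNA per cell.

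The 250 bases before the start of 5 of the genes are shown because the promoters of myeloid genes are known for short purine-rich boxes bound by the transcription factor PU.1, the product of Spi1, and for AP-1 sites. The 5 genes are picked examples. The first 4 genes rose in anomalies and hold a box, and the last, Cd163, was not called and holds neither set of letters. Capitals mark GAGGAA and TGAGTCA on either strand, 2 motifs that do not overlap each other in these sequences. TTCCTC is GAGGAA read on the other strand. Sequences are from RefSeq on GRCm38.p6, written in the direction of transcription.
C1qb, chr4:136886201-136886450, minus strand: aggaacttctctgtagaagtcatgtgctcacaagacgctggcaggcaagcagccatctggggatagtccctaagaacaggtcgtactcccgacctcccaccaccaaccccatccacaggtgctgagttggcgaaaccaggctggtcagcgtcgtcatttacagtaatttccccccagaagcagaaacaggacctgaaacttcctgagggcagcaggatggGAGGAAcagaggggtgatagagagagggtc
Cd68, chr11:69666171-69666420, minus strand: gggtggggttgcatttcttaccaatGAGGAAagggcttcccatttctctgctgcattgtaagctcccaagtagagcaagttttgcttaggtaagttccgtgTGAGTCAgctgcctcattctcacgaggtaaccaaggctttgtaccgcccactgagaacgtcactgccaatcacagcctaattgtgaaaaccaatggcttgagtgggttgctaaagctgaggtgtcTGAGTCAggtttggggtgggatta
Fcgr1, chr3:96293970-96294219, minus strand: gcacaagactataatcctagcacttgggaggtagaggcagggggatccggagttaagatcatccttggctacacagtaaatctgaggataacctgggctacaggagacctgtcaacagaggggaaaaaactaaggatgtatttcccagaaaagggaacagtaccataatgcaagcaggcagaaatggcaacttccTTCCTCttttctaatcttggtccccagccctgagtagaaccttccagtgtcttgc
Trem2, chr17:48346151-48346400, plus strand: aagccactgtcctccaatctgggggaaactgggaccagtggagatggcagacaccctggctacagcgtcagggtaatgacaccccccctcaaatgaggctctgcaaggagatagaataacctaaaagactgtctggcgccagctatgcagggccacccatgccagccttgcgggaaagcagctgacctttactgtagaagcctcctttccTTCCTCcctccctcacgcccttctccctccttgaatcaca
Cd163, chr6:124304401-124304650, plus strand: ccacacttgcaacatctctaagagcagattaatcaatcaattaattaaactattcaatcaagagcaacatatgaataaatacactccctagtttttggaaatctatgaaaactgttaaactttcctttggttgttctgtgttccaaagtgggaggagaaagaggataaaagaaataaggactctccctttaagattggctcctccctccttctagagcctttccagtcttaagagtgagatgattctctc
RefSeq windows were matched for 29 of the 38 genes, giving 34 windows because some genes have more than 1 start, and windows of 1 gene can overlap. GAGGAA stood in 16 of the 34 windows (47.1%), belonging to 14 genes, and in 23.3% of all 32851 windows of the same length. TGAGTCA stood in 4 of the 34 windows (11.8%), those of Cd68, Cd84, Folr2 and Itgax, and in 4.46% of all windows. Cd68 holds 2 TGAGTCA motifs beside 1 GAGGAA motif, the only one of the 5 sequences shown with both. Among matched genes not shown, Marco holds GAGGAA and Folr2 holds TGAGTCA, and neither gene was called. Mpeg1 and Fcer1g rose and hold neither motif. These matches are descriptions of letters, and no binding was measured. Whether the motifs go with a rise was not tested. Windows were not matched for Cd86, Siglec1, Tyrobp, Arg1, Msr1, Cd14, Csf1r, C1qa and Adgre1.

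Myeloid transcripts were far more abundant in vascular anomalies than in normal muscle. Of the 38 genes, 33 were higher, 0 were lower and 5 were not called (limma on log2(CPM + 1), Benjamini-Hochberg adjusted p under 0.05 over the 14687 genes whose mean reached 1 CPM in either group). Of all 14687 genes, 63.4% were called, 32.4% higher and 31.0% lower. At an unadjusted p under 0.05 there were also 0 lower, and voom on reads summed per animal gave 0 lower. The median log2 fold change was 3.40 over the 38 genes and 0.09 over all genes tested. It differed between animals, with medians over the 38 genes of 4.33, 4.08 and 2.18 in anomaly animals 1, 2 and 3 relative to the mean of normal animals, where all genes had medians of -0.05, 0.13 and 0.08. In 34 of the 38 genes all 3 anomaly animals lay above all 3 normal animals, as did 37.6% of all genes, and in 0 they lay below, as did 35.4%. All 6 anomaly libraries lay above all 6 normal libraries in 28 of the 38 genes, as did 28.8% of all genes. Reads of the 38 genes made up 0.137% to 0.759% of an anomaly library and 0.00507% to 0.0272% of a normal library. Fold changes are on the log2(CPM + 1) scale, which understates changes of genes near 0 CPM. The 5 genes not called were Cd163, Folr2, Timd4, Marco and Arg1. Counts, medians and shares in this paragraph include the 14 genes that passed the filter through anomalies alone and so had to stand higher. Of the 23 genes that passed in both groups, Cd163 alone was not called, and the rest were higher.

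**Figure D1:**
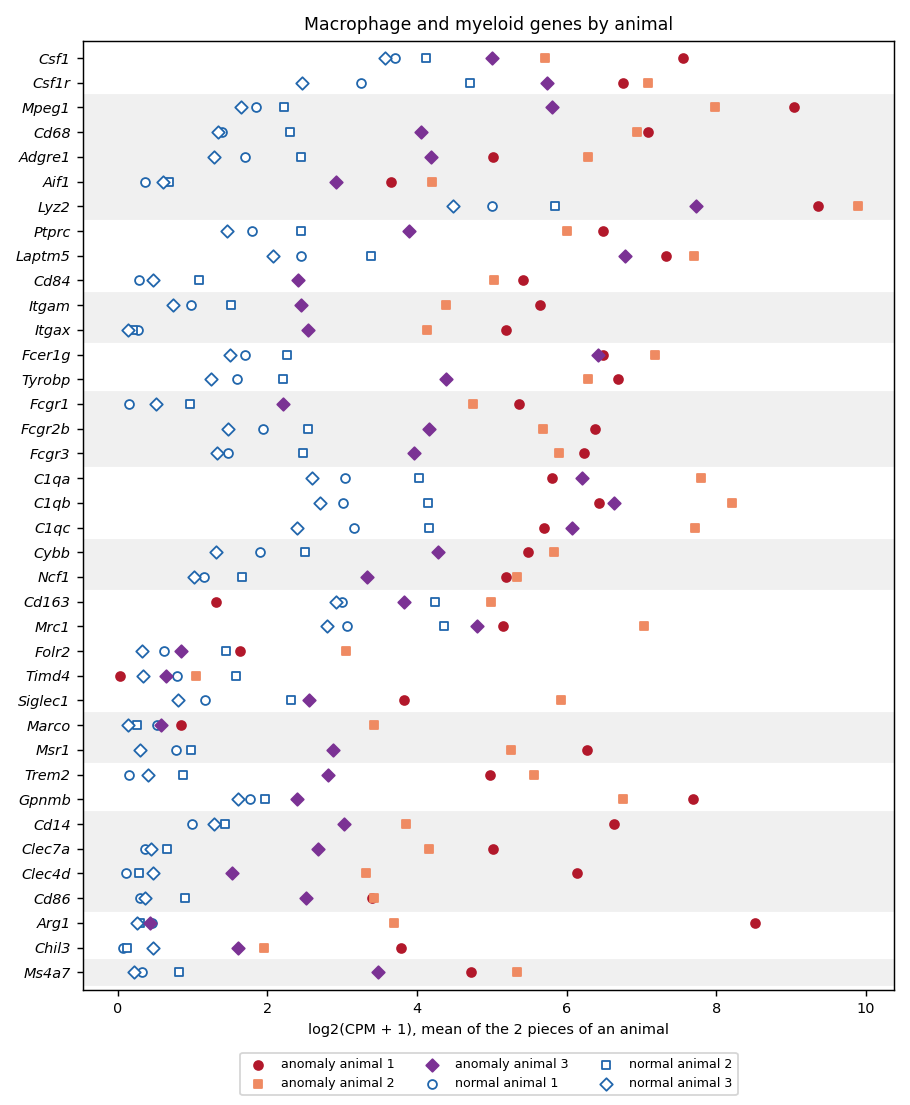
Level of each of the 38 genes in every animal, as log2(CPM + 1) on the x axis, mean of 2 libraries per animal; filled symbols are the 3 anomaly animals and open symbols the 3 normal animals, and grey bands separate roles. Anomaly animal 3 sits lowest of the 3 anomaly animals in 33 genes, and in 34 genes no normal animal reaches any anomaly animal.

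The plot of levels by animal shows no overlap of the 2 groups for most of the genes. The 4 that overlap are Cd163, Folr2, Timd4 and Arg1, and Marco overlaps when its pieces are averaged in CPM. Compared per length, the gene with the highest level in anomalies was Lyz2 at 484 CPM per kb of exon, followed by C1qb at 165, C1qa at 126, Fcer1g at 122 and Tyrobp at 100.2 CPM per kb. The lowest was Timd4 at 0.334 CPM per kb. In normal muscle Lyz2 was also highest, at 30.6 CPM per kb, followed by C1qb at 9.44 and C1qa at 9.25 CPM per kb.

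**Figure D2:**
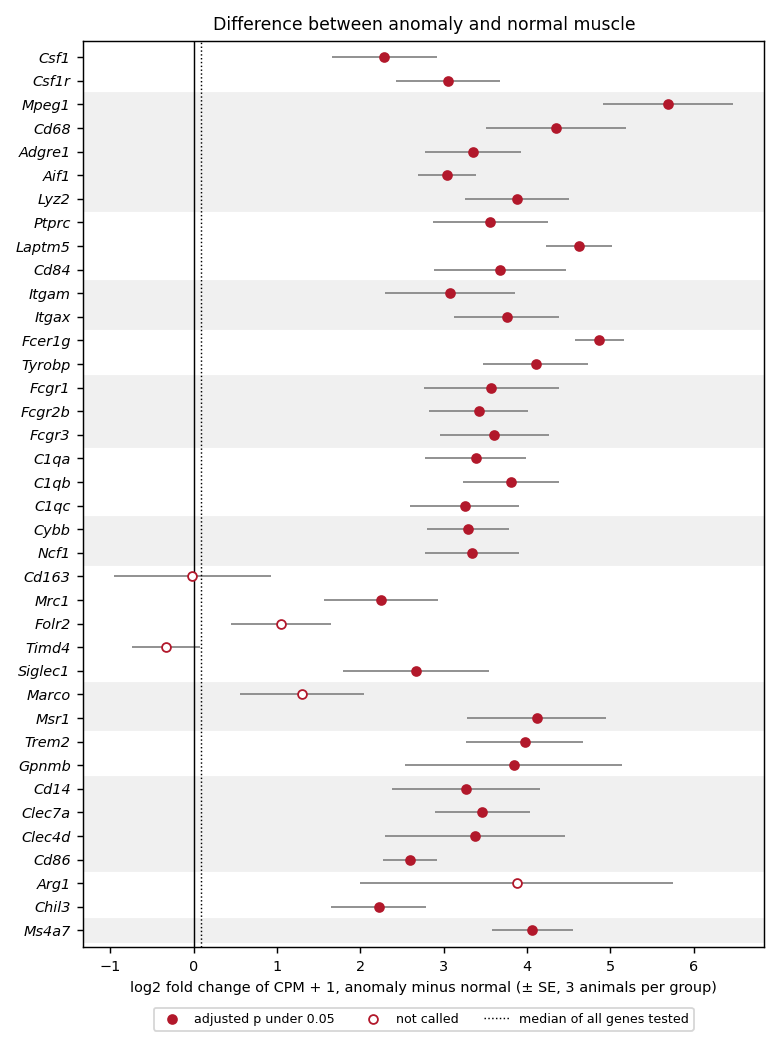
Log2 fold change of CPM + 1, anomaly minus normal, for the 38 genes with their standard errors (n = 3 animals per group); filled points have an adjusted p under 0.05, open points were not called, and the dotted line is the median of all genes tested. Values run from -0.33 for Timd4 to 5.70 for Mpeg1, and the 5 open points are Cd163, Folr2, Timd4, Marco and Arg1.

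The growth factor and its receptor both rose. Csf1, the ligand that keeps macrophages alive (chr3:107741048-107760469, minus strand, GRCm38), averaged 207, 53.4 and 31.0 CPM in anomaly animals 1, 2 and 3, against 12.1, 16.8 and 10.9 CPM in the normal animals. The groups did not overlap, and animal 1 stood above the rest, at 118 CPM in piece 2 alone. The log2 fold change was 2.29 ± 0.63 (SE; limma adjusted p = 0.0192). Csf1r, the receptor tyrosine kinase for Csf1 and interleukin 34 (chr18:61100598-61132149, plus strand), averaged 115, 147 and 52.3 CPM in anomaly animals, against 8.71, 27.1 and 4.58 CPM in normal animals. All anomaly libraries were above all normal libraries, and the log2 fold change was 3.05 ± 0.63 (limma adjusted p = 0.00641). Of the exon bases of Csf1r, 15.1% are shared with Hmgxb3 on the other strand, which these unstranded libraries cannot separate. Csf1 lost its call without normal animal 1 (limma adjusted p = 0.0593) and without normal animal 3 (limma adjusted p = 0.0642).

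General macrophage markers rose in all 5 genes. Mpeg1, which encodes the pore-forming protein perforin-2 (chr19:12460779-12465283, plus strand), had the highest fold change of the 38 genes. It averaged 551, 268 and 56.0 CPM in anomaly animals, against 2.80, 3.90 and 2.15 CPM in normal animals, a log2 fold change of 5.70 ± 0.78 (limma adjusted p = 0.00145). Aif1, which encodes the actin-binding protein IBA1 (chr17:35170991-35176068, minus strand), averaged 14.3, 18.2 and 7.19 CPM in anomaly animals, against 0.296, 0.656 and 0.514 CPM in normal animals. Animal 1 was at 23.1 CPM in piece 2 alone. The anomaly animals lay closer together than those of Mpeg1, and the log2 fold change was 3.04 ± 0.35 (limma adjusted p = 0.000805). Cd68, a lysosomal glycoprotein, Adgre1, which encodes the F4/80 antigen, and Lyz2, the myeloid lysozyme, rose by log2 fold changes of 4.35 ± 0.84, 3.35 ± 0.58 and 3.88 ± 0.62. Reads of Lyz2 can be hard to tell from those of its near copy Lyz1.

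Proteins shared by leukocytes or used in myeloid adhesion rose in all 5 genes. Laptm5, a lysosomal membrane protein of blood cells (chr4:130913125-130936141, plus strand), averaged 165, 207 and 110 CPM in anomaly animals, against 5.09, 9.97 and 3.52 CPM in normal animals. The log2 fold change was 4.63 ± 0.40 (limma adjusted p = 0.00033), and anomaly animal 3 lay close to the other anomaly animals. Ptprc, the leukocyte phosphatase CD45, averaged 89.4, 65.8 and 14.2 CPM in anomaly animals, against 2.91, 4.91 and 1.76 CPM in normal animals. Here animal 3 was much lower than animals 1 and 2 (log2 fold change 3.56 ± 0.69, limma adjusted p = 0.00506). Cd84, an adhesion receptor of the SLAM family, rose by 3.67 ± 0.79.

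Among the integrins, Itgax, the alpha chain of CD11c (chr7:128129547-128150657, plus strand), averaged 36.4, 16.9 and 4.98 CPM in anomaly animals, against 0.202, 0.152 and 0.1 CPM in normal animals. This gave a log2 fold change of 3.76 ± 0.63 (limma adjusted p = 0.00304). Itgam, the alpha chain of CD11b, averaged 52.2, 20.7 and 4.46 CPM in anomaly animals, against 1.14, 2.21 and 0.702 CPM in normal animals. For both integrins animal 1 was the highest and animal 3 the lowest of the anomaly animals, with Itgam at 33.9 CPM in piece 2 of animal 1 alone. Itgam rose by a log2 fold change of 3.08 ± 0.78 (limma adjusted p = 0.0139). Itgam shares 68.7% of its exon bases with the gene model Gm49368, and its call was lost without normal animal 3 (limma adjusted p = 0.0511) and in the voom fit, which also lost that of Cd84.

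The adaptors that carry activation motifs for Fc and other immune receptors rose in both genes. Fcer1g, the common gamma chain of Fc receptors (chr1:171229572-171234365, minus strand), averaged 91.6, 144 and 84.8 CPM in anomaly animals, against 2.25, 3.80 and 1.92 CPM in normal animals. Its log2 fold change of 4.87 ± 0.30 had the smallest adjusted p of the 38 genes (limma adjusted p = 0.000144). Tyrobp, the adaptor DAP12 used by Trem2 (chr7:30413760-30417585, plus strand), averaged 103, 77.4 and 20.1 CPM in anomaly animals, against 2.15, 3.74 and 1.36 CPM in normal animals. On the log2 scale it rose by 4.10 ± 0.63 (limma adjusted p = 0.00208), with animal 3 well below animals 1 and 2.

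Receptors for immunoglobulin G rose in all 3 genes. Fcgr2b, the inhibitory receptor (chr1:170958617-170976547, minus strand), averaged 82.0, 50.7 and 16.9 CPM in anomaly animals, against 2.84, 5.62 and 1.84 CPM in normal animals (log2 fold change 3.42 ± 0.59, limma adjusted p = 0.00333). Fcgr3, an activating receptor, averaged 74.5, 59.9 and 14.6 CPM in anomaly animals, against 1.80, 4.77 and 1.54 CPM in normal animals. The difference on the log2 scale was 3.61 ± 0.65 (limma adjusted p = 0.00381), and these 2 genes share near-identical stretches whose reads can be hard to place. Fcgr1, the high-affinity receptor, rose by 3.57 ± 0.81 (limma adjusted p = 0.00916) but was not called in the voom fit.

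The 3 subunits of complement C1q, which resident macrophages make in large amounts, lie side by side on chromosome 4 and rose together. C1qb (chr4:136880129-136886187, minus strand), whose upstream sequence with a GAGGAA box is printed above, averaged 136, 301 and 101 CPM in anomaly animals, against 7.13, 17.7 and 6.01 CPM in normal animals. That is a log2 fold change of 3.81 ± 0.58 (limma adjusted p = 0.00207). C1qa averaged 88.0, 232 and 73.7 CPM in anomaly animals, against 7.44, 16.1 and 5.37 CPM in normal animals (log2 fold change 3.38 ± 0.60, limma adjusted p = 0.00368). The subunits were highest in animal 2, and the pieces of animal 1 stood apart, with C1qa at 18.5 and 157 CPM and C1qb at 29.6 and 242 CPM in pieces 1 and 2. C1qc rose by 3.25 ± 0.65. Normal libraries reached 21.2 CPM for C1qa and 21.8 CPM for C1qc, above the shallow piece 1 of animal 1, so these libraries overlapped.

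The oxidase that makes superoxide in phagocytes rose in both genes. Cybb, the catalytic subunit (chrX:9435252-9487771, minus strand), averaged 49.6, 56.8 and 19.0 CPM in anomaly animals, against 3.11, 5.5 and 1.48 CPM in normal animals (log2 fold change 3.29 ± 0.49, limma adjusted p = 0.00188). Ncf1, the cytosolic subunit p47phox, averaged 36.1, 40.3 and 9.15 CPM in anomaly animals, against 1.26, 2.20 and 1.06 CPM in normal animals. The log2 fold change was 3.34 ± 0.56 (limma adjusted p = 0.00295), and 11.1% of its exon bases are shared with Gtf2ird2. Of 4 other oxidase genes, 3 were higher and Rac1, a widely expressed GTPase, was not called (log2 fold change 0.08 ± 0.16). Cyba, a further subunit, rose by 3.69 ± 0.55.

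Of 5 receptors typical of resident macrophages, 2 rose and 3 were not called. Cd163, the haemoglobin scavenger receptor (chr6:124304656-124330527, plus strand), averaged 1.51, 39.2 and 14.0 CPM in anomaly animals, against 7.03, 18.7 and 6.57 CPM in normal animals. Animal 1 was below every normal animal and animal 2 above every normal animal, and the mean difference was -0.01 ± 0.94 on the log2 scale (limma adjusted p = 0.991), or 1.02 without anomaly animal 1 and -0.82 without anomaly animal 2. Timd4, a receptor for phosphatidylserine, averaged 0.0225, 1.57 and 0.586 CPM in anomaly animals, against 0.781, 2.06 and 0.272 CPM in normal animals. In piece 2 of animal 1 alone it was at 0.0449 CPM. The group ranges overlap, at levels near 1 CPM (log2 fold change -0.33 ± 0.41, limma adjusted p = 0.496). Folr2, folate receptor beta, averaged 2.12, 8.69 and 0.815 CPM in anomaly animals, against 0.534, 1.83 and 0.257 CPM in normal animals. Its log2 fold change of 1.05 ± 0.60 was not called (limma adjusted p = 0.167) and was 1.55 without anomaly animal 3, the animal closest to normal (limma adjusted p = 0.045), and 0.45 without anomaly animal 2, the highest (limma adjusted p = 0.412). An antisense gene covers 63.1% of the exon bases of Folr2.

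Mrc1 and Siglec1 were called. Mrc1, the mannose receptor (chr2:14229392-14332057, plus strand), averaged 47.0, 159 and 26.9 CPM in anomaly animals, against 7.40, 20.8 and 6.03 CPM in normal animals. This gave a log2 fold change of 2.25 ± 0.68 (limma adjusted p = 0.0269). Siglec1, the sialic acid receptor CD169 (chr2:131069220-131086765, minus strand), averaged 17.5, 82.2 and 5.08 CPM in anomaly animals, against 1.27, 4.14 and 0.759 CPM in normal animals. On the log2 scale it rose by 2.67 ± 0.88 (limma adjusted p = 0.0355). All 5 receptors were highest in anomaly animal 2, and in piece 2 of animal 1 alone Mrc1 was at 79.2 CPM and Siglec1 at 29.5 CPM. Without 1 animal these calls were lost, with limma adjusted p of 0.0839 and 0.0899 for Mrc1 without normal animals 1 and 3, and 0.0587 to 0.111 for Siglec1 when anomaly animals 1 or 2, or normal animals 1 or 3, were left out. Siglec1 was also not called in the voom fit.

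The other scavenger receptors differed from each other. Msr1, the class A receptor for modified lipoproteins, averaged 82.1, 37.3 and 6.36 CPM in anomaly animals, against 0.776, 1.01 and 0.237 CPM in normal animals, a log2 fold change of 4.12 ± 0.83 (limma adjusted p = 0.00599). Marco averaged 0.994, 19.8 and 0.513 CPM in anomaly animals, against 0.542, 0.200 and 0.108 CPM in normal animals. Its high value came from 1 library, lesion 2 of animal 2 at 37.7 CPM, where lesion 1 had 1.96 CPM, and piece 2 of animal 1 alone had 0.135 CPM. Marco had a log2 fold change of 1.31 ± 0.74 (limma adjusted p = 0.165), and without anomaly animal 2 it did not pass the filter on low values. Msr1 lost its call in the voom fit.

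Genes of lipid-associated macrophages were high in animals 1 and 2. Trem2, a receptor for lipids and apolipoproteins that signals through Tyrobp (chr17:48346401-48354147, plus strand), averaged 35.9, 46.3 and 6.15 CPM in anomaly animals, against 0.114, 0.852 and 0.329 CPM in normal animals. The difference on the log2 scale was 3.97 ± 0.71 (limma adjusted p = 0.00369). Gpnmb, a glycoprotein of lysosome-rich cells (chr6:49036546-49070929, plus strand), averaged 252, 201 and 4.47 CPM in anomaly animals, against 2.48, 3.0 and 2.11 CPM in normal animals. In piece 2 of animal 1 alone, Trem2 was at 55.2 CPM and Gpnmb at 399 CPM. Gpnmb was close to normal in animal 3, and the 2 lesions of animal 2 had 371 and 30.6 CPM. Gpnmb had a log2 fold change of 3.84 ± 1.31 (limma adjusted p = 0.0399), a call lost when any single animal other than anomaly animal 3 was left out, with limma adjusted p of 0.0864 to 0.122. Trem2 and Gpnmb were also not called in the voom fit. Of 22 other lipid-associated and lysosomal genes, 15 were higher, 2 lower and 5 not called (17 higher and 0 lower with library totals alone). With anomaly animal 1 by piece 2 alone, 15 were higher and 1 lower. Fabp5, a fatty acid carrier, Cd9, a tetraspanin, Ctsk, a cathepsin, and Lipa, the lysosomal acid lipase, rose by 3.50 ± 0.35, 2.81 ± 0.29, 2.97 ± 0.35 and 3.45 ± 0.43. Lpl, lipoprotein lipase, and Lamp1, a lysosomal membrane protein, fell by 2.37 ± 0.82 and 0.84 ± 0.27 on the log2 scale, and muscle also makes both.

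Receptors for microbial patterns and costimulation rose in all 4 genes, and Cd14 and Clec4d differed widely between anomaly animals. Cd86, the costimulatory ligand of CD28 (chr16:36603869-36666081, minus strand), averaged 9.53, 11 and 4.88 CPM in anomaly animals, against 0.234, 0.879 and 0.286 CPM in normal animals (log2 fold change 2.60 ± 0.33, limma adjusted p = 0.00109). Clec7a, the beta-glucan receptor dectin-1, averaged 31.3, 17.3 and 5.74 CPM in anomaly animals, against 0.295, 0.575 and 0.373 CPM in normal animals. The log2 fold change was 3.46 ± 0.57 (limma adjusted p = 0.00281), and the annotation calls this gene a polymorphic pseudogene. Cd14, a coreceptor for lipopolysaccharide, averaged 147, 13.7 and 7.16 CPM in anomaly animals, against 0.994, 1.70 and 1.45 CPM in normal animals (log2 fold change 3.27 ± 0.89, limma adjusted p = 0.0182). Clec4d, a C-type lectin for mycobacterial glycolipids, averaged 90.4, 9.36 and 2.01 CPM in anomaly animals, against 0.0775, 0.236 and 0.416 CPM in normal animals (log2 fold change 3.38 ± 1.08, limma adjusted p = 0.0328). In animal 1 both genes were highest in the shallow piece 1, at 258 CPM for Cd14 and 148 CPM for Clec4d, against 37.1 and 32.5 CPM in piece 2. Both calls were lost without 1 animal, at limma adjusted p of 0.0542 and 0.0589 for Cd14 without normal animals 3 and 1, and 0.0727 to 0.089 for Clec4d without anomaly animal 2 or any 1 normal animal; voom did not call Clec4d.

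Enzymes tied to alternative activation differed widely between anomaly animals. Arg1, arginase 1 (chr10:24915221-24927484, minus strand), averaged 409, 26.2 and 0.343 CPM in anomaly animals 1, 2 and 3, against 0.368, 0.226 and 0.208 CPM in normal animals. In piece 2 of animal 1 alone Arg1 was at 225 CPM. Animal 3 lay within the range of normal animals, and the 2 lesions of animal 2 had 50.2 and 2.27 CPM. The log2 fold change was 3.88 ± 1.87 and was not called (limma adjusted p = 0.112), but it was 5.77 without anomaly animal 3 (limma adjusted p = 0.0118) and 1.72 without anomaly animal 1. Chil3, the chitinase-like protein Ym1, averaged 13.4, 2.95 and 2.12 CPM in anomaly animals, against 0.0516, 0.0894 and 0.409 CPM in normal animals. This gave a log2 fold change of 2.22 ± 0.57 (limma adjusted p = 0.0149, or 0.0517 without normal animal 1), and reads of its near copy Chil4 may be hard to separate. Of 9 other genes tied to alternative activation, 5 were higher and 4 not called, beside 32.4% of all genes called higher. Those higher included Il4ra, the interleukin 4 receptor chain, at 2.99 ± 0.34, and Mmp12, macrophage elastase, at 5.05 ± 1.20. Ms4a7, a membrane-spanning protein of macrophages, averaged 34.0, 39.6 and 10.6 CPM in anomaly animals, against 0.254, 0.759 and 0.157 CPM in normal animals (log2 fold change 4.07 ± 0.49, limma adjusted p = 0.000923), with 56.8 CPM in piece 2 of animal 1 alone.

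**Figure D3:**
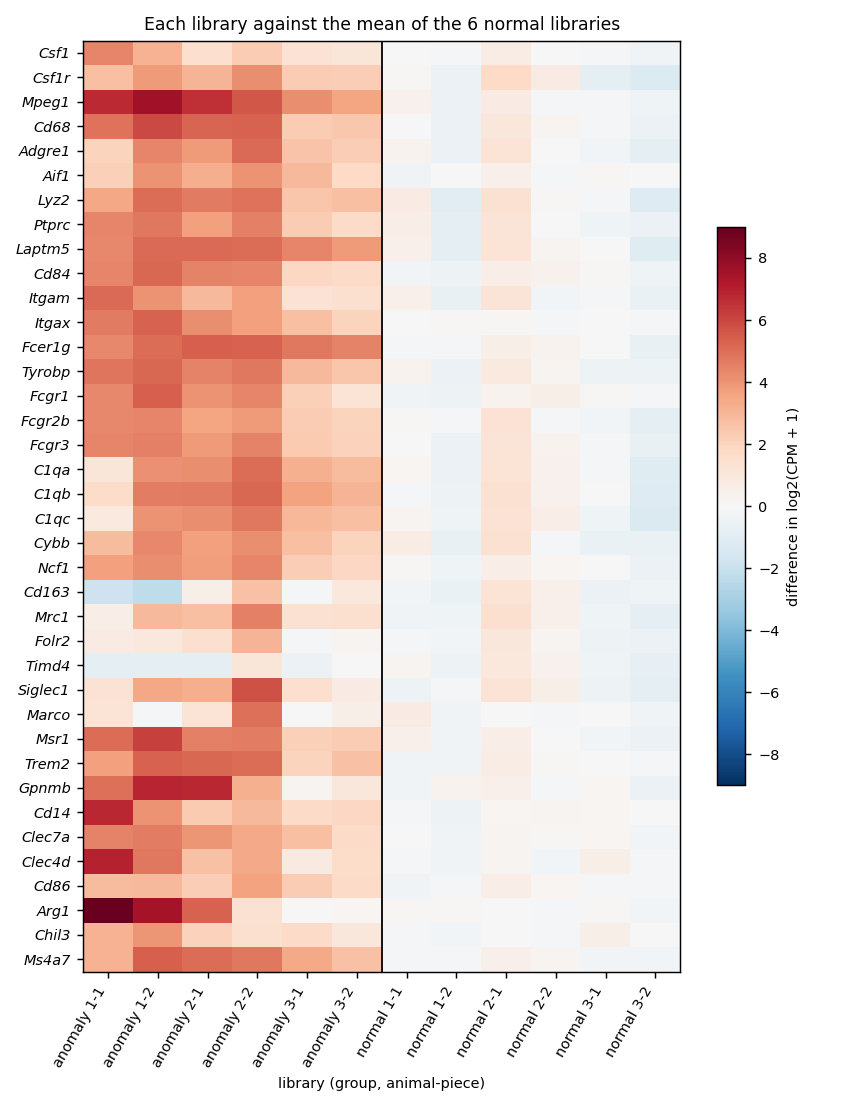
Difference in log2(CPM + 1) of each library (columns, group and animal-piece) from the mean of the 6 normal libraries, for the 38 genes (rows); red is higher, blue is lower, and the vertical line parts the 6 anomaly libraries on the left from the 6 normal libraries. Anomaly animal 3 is lowest of the 3 anomaly animals in 33 rows, and Cd163 is blue in both libraries of animal 1.

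The map of libraries shows the anomaly animals side by side. A limma F test on the 12 libraries, in which the error is the spread between pieces of an animal, called 24 of the 38 genes different among the 3 anomaly animals, beside 35.1% of all genes. Among the 3 normal animals it called 0 of the 38 genes, beside 1.08% of all genes. At an unadjusted p under 0.05 there were 5 of the 38, beside 7.46% of all genes, and no other tool was run for this test. Without anomaly animal 3 the count among anomaly animals was 6 (11.2% of all genes), and without the shallow library it was 31 (44.5%), where animal 1 has 1 library and is assumed to vary like the other animals. Animal 3 was lowest of the 3 in 33 of the 38 genes (32.7% of all genes). Muscle markers were highest in that animal, as given above, and their part in this order was not tested. Animal 2 exceeded animal 3 in 20 genes and was lower in 0 (17.5% of all genes called, either direction), and animal 1 exceeded animal 3 in 20 and was lower in 1, Cd163 (35.2%).

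In anomaly animals 1 and 2 the 38 genes took similar shares of the reads, at 0.700% and 0.759% in the pieces of animal 1 and 0.597% and 0.753% in the lesions of animal 2. Animal 1 was higher than animal 2 in Csf1, Cd14, Clec4d, Arg1 and Chil3 and lower in Cd163 (limma, 12.4% of all genes called in either direction). In all comparisons of 2 anomaly animals, as in the F test, the error is the spread between pieces of an animal. It is not the spread between animals. The differences, animal 1 minus animal 2, were 4.82 ± 0.94 for Arg1 (limma adjusted p = 0.00746), 2.82 ± 0.60 for Clec4d (limma adjusted p = 0.0117), 2.79 ± 0.65 for Cd14 (limma adjusted p = 0.0187) and -3.67 ± 0.58 for Cd163 (limma adjusted p = 0.00226) on the log2 scale. With animal 1 by piece 2 alone, this 1 library has no spread of its own and is assumed to vary as the pieces of the other animals do. Under that assumption Cd14, Clec4d, Chil3, Itgax and Msr1 were called higher and Cd163 lower, and Csf1 and Arg1 were not called at limma adjusted p of 0.0659 and 0.067 (13.4% of all genes). Animal 1 was highest of the 3 in 18 genes (28.5% of all genes) and animal 2 in 20 (28.0%), which included all C1q subunits and all 5 receptors of resident macrophages. This split depends on the shallow library. By piece 2 alone, animal 1 instead exceeded animal 2 in Csf1r, Aif1, Lyz2, Laptm5, Cybb, Ncf1, Trem2, Cd86 and Ms4a7. Those differences ran from 0.007 for Laptm5 to 0.51 for Ms4a7 on the log2 scale. The C1q subunits and the 5 receptors stayed higher in animal 2. Neutrophils also express Cd14, Clec4d and Itgam. Their markers summed to 405, 45.1 and 11.3 CPM in anomaly animals 1, 2 and 3, against 1.25 to 23.3 CPM in normal libraries. The sum in animal 1 was 687 CPM in the shallow piece 1 and 123 CPM in piece 2. Of 9 neutrophil genes tested 1, Csf3r, was higher (2 of 10 with library totals alone). S100a9 averaged 121 CPM in animal 1, with 217 and 24.3 CPM in pieces 1 and 2, and the defining gene Ly6g was at 1.13, 0 and 0.017 CPM in anomaly animals and at 0, 0 and 0.0283 CPM in normal animals. Its value in animal 1 came from 1 read in piece 1 and 9 reads in piece 2, or 0.405 CPM in piece 2 alone. The part of neutrophils in the values of animal 1 was not tested.

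**Figure D4:**
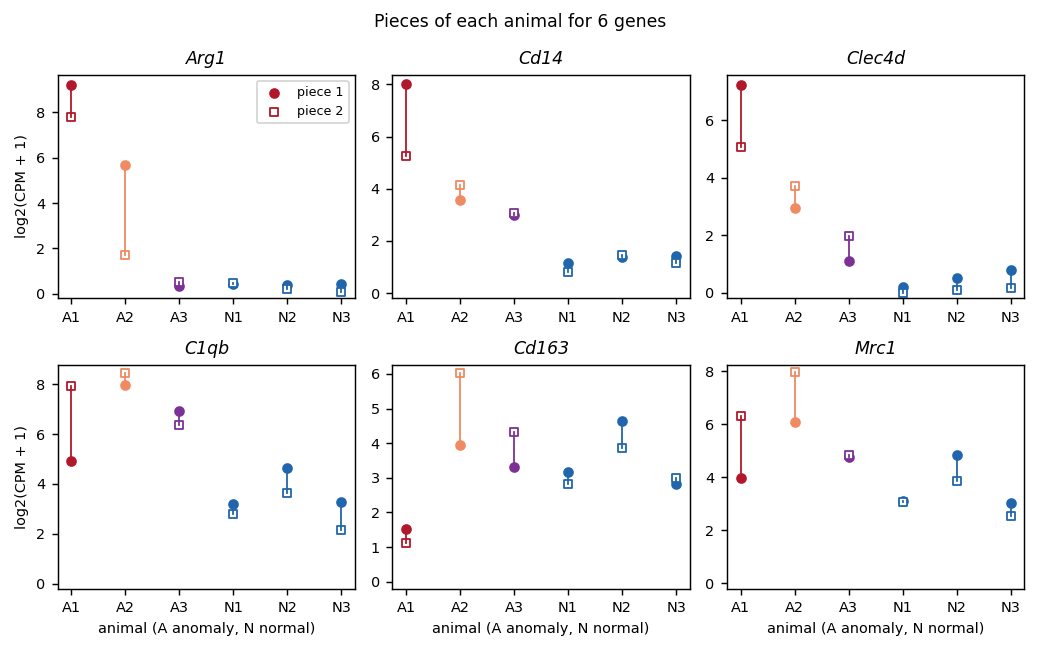
Level of 6 genes in every library as log2(CPM + 1), with the 2 pieces of an animal joined by a line (filled circle, piece 1; open square, piece 2) and animals on the x axis, anomaly A1 to A3 at left and normal N1 to N3 at right. The 6 genes are picked examples. By the mean of the pieces, Arg1, Cd14 and Clec4d are highest in A1, Cd163 is lowest in A1, and C1qb and Mrc1 are highest in A2.

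The plot of pieces shows how far 2 pieces of an animal can differ. In anomaly animal 1, piece 1 exceeded piece 2 in 7 of the 38 genes (26.0% of all genes), namely Csf1, Itgam, Cd163, Marco, Cd14, Clec4d and Arg1. For Cd163 and Marco piece 1 had 1 read each, worth 1.85 CPM, against 26 and 3 reads in piece 2. The order of the pieces for these genes thus rests on 1 read. In anomaly animal 2, lesion 2 exceeded lesion 1 in 27 of the 38 genes (48.0% of all genes), with Mrc1 at 251 CPM in lesion 2 and 66.9 CPM in lesion 1. Among normal libraries, piece 1 of animal 2 was highest in 32 of the 38 genes (20.2% of all genes). The name of that animal in the sample titles begins with M, and those of the other normal animals begin with F. The titles do not say what these letters mean, and their part in this order was not tested.

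Each level was also set against the mean of Mpeg1, Cd68, Adgre1 and Csf1r in the same animal. All 4 of these yardstick genes rose, so a gene with an unchanged level comes out lower in anomalies. The differences between groups rank genes as the fold changes above do, and they add no separate measure of composition. Of the other 34 genes, 14 lay lower in all anomaly animals than in all normal animals, and 0 lay higher; over all genes tested these shares were 87.6% and 0.123%. These ratios were not tested. The lowest differences, anomaly minus normal on the log2 scale, were those of Timd4 at -4.44, Cd163 at -4.12, Folr2 at -3.06 and Marco at -2.81. Mrc1 and Siglec1 were at -1.86 and -1.44. In normal muscle Timd4, Folr2 and Marco averaged 1.04, 0.874 and 0.283 CPM, near or below the pseudocount of 1 CPM. All 5 receptors of resident macrophages were among the 14 genes, beside the 87.6% of all genes tested that lay lower. Of these receptors, Mrc1 and Siglec1 rose in CPM. With a pseudocount of 0.25 CPM the 14 became 10, without Siglec1 and Marco, and with Cd163, Mrc1, Folr2 and Timd4. At the other end, Fcer1g was at 0.76 and Laptm5 at 0.52, with groups that overlapped, and Msr1 at 0.01. The C1q subunits overlapped as well, with C1qa at -0.73, C1qb at -0.30 and C1qc at -0.86. C1qa and C1qc lay lower in all anomaly animals without animal 3. With the leukocyte-wide genes Ptprc, Laptm5, Tyrobp and Fcer1g as the yardstick, 18 genes lay lower, the same 5 receptors and C1qa among them, and 1 higher, Mpeg1.

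**Figure D5:**
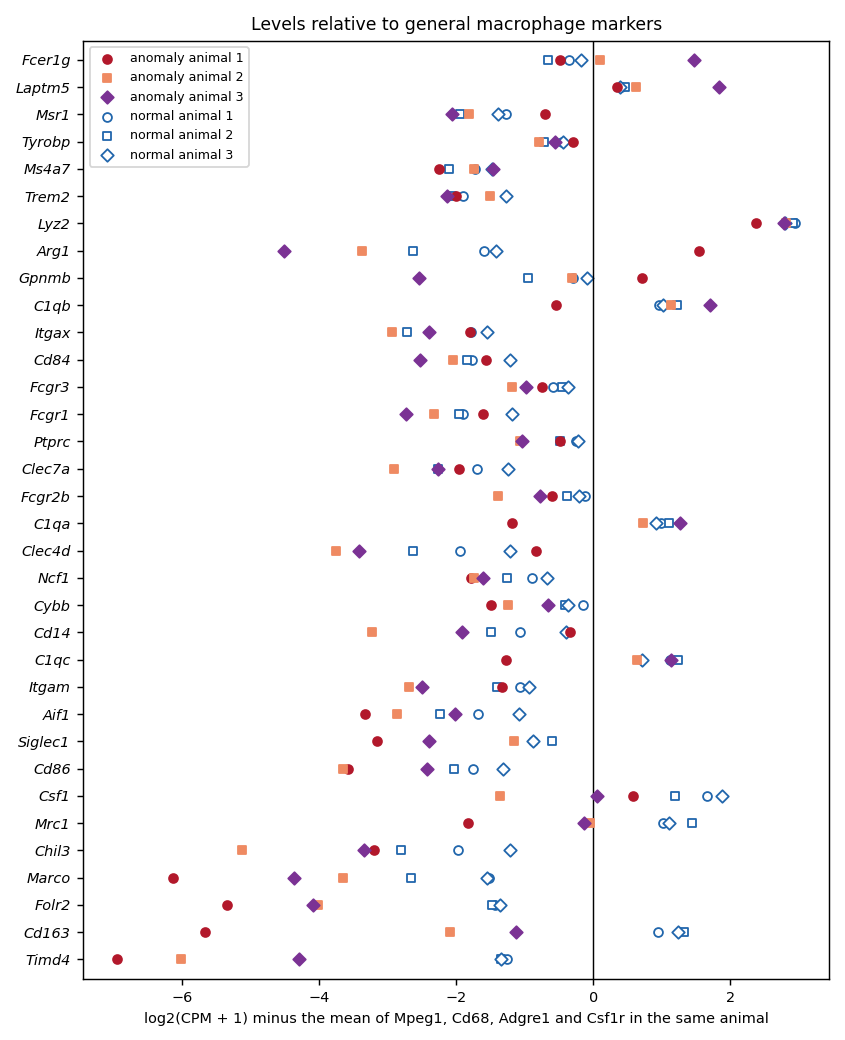
Level of 34 genes relative to the mean of Mpeg1, Cd68, Adgre1 and Csf1r in the same animal (x axis, log2 units), with anomaly animals as filled and normal animals as open symbols, sorted by the difference anomaly minus normal from highest at the top. At the bottom Timd4, Cd163, Folr2 and Marco lie far to the left in anomaly animals. For 14 genes all anomaly animals lie left of all normal animals, as for 87.6% of all genes tested.

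Other genes of the same cells were counted over lists. For every list counted, here, above and below, the shares over all 14687 genes tested were 32.4% higher and 31.0% lower. Genes of these lists could also pass the filter through anomalies alone. Some genes, such as Csf3r, stand in several lists, and their calls are counted in each. Of 18 adaptors and kinases of leukocyte signalling, 18 were higher and 0 lower, with a median log2 fold change of 3.19. Lyn, a kinase of the Src family, Inpp5d, the phosphatase SHIP1, and Syk, the kinase that Fcer1g and Tyrobp recruit, rose by 3.61 ± 0.21, 4.44 ± 0.42 and 3.72 ± 0.38. Of 17 other lectins and Fc and Siglec receptors tested, 16 were higher and 0 lower, among them Cd300ld, Clec4a2 and Clec4n. Of 5 genes tested of the other colony-stimulating factors and receptors, 4 were higher, among them Csf2rb, the common beta chain, at 4.24 ± 0.20, whereas Il34, the other ligand of Csf1r, was not called (0.71 ± 0.48). Of 14 monocyte genes, 8 were higher, 1 lower and 5 not called. Cx3cr1 and Fcgr4 rose by 3.14 ± 0.30 and 3.74 ± 0.49, and Nr4a1, a nuclear receptor that muscle also expresses, fell by 3.66 ± 0.27. Of 16 further genes of resident and perivascular macrophages, 8 were higher, 0 lower and 8 not called. With anomaly animal 1 by piece 2 alone, 8 were higher and 1 lower. Stab1, a scavenger receptor also made by endothelium, and Hmox1, haem oxygenase 1, rose by 4.01 ± 0.33 and 5.28 ± 1.11.

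Transcription factors moved in both directions. Of 14 measured, 8 were higher, 3 lower and 3 not called (9 higher and 1 lower with library totals alone, and 8 higher and 2 lower with anomaly animal 1 by piece 2 alone). Spi1, which encodes PU.1, rose by 3.44 ± 0.49, and Runx1, which acts upstream of it in blood development, rose by 3.22 ± 0.33. Maf, a factor of resident macrophages that muscle also expresses, averaged 42.6, 53.3 and 20.7 CPM in anomaly animals, against 335 to 423 CPM in normal animals. Maf fell by 3.41 ± 0.35 on the log2 scale (limma adjusted p = 0.000547), and Mitf and Nr1h3 fell by 1.56 ± 0.19 and 1.19 ± 0.42. Of 17 inflammatory genes tested, 7 were higher and 10 not called, beside 32.4% of all genes called higher. Cd40, a costimulatory receptor, Cxcl10 and Ccl2, which are chemokines, and Nos2, nitric oxide synthase, rose by 3.21 ± 0.22, 3.37 ± 0.37, 3.85 ± 0.83 and 2.97 ± 0.43. Il1b averaged 71.4, 3.63 and 1.21 CPM in anomaly animals, against 0.109, 0.253 and 0.749 CPM in normal animals, and was not called (limma adjusted p = 0.0909). Like Cd14 and Clec4d, it was highest in animal 1, at 29.8 CPM in piece 2 alone.

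Markers of other blood cells were measured beside these genes, where 32.4% of all genes were called higher and 31.0% lower. Of 10 T and NK cell genes tested, 8 were higher and 0 lower, but 3 of 8 with anomaly animal 1 by piece 2 alone, and their summed levels were 8.41 to 60.5 CPM in anomaly libraries and 2.25 to 6.80 CPM in normal libraries. Of 7 dendritic cell genes tested, 5 were higher, and of 7 B cell genes 0 were higher and 1, Ighm, was lower (4 higher with library totals alone). Of 6 mast cell genes tested 1 was higher, Kit, which other cells also express. Of 4 osteoclast genes tested 2 were higher, Ctsk and Acp5, which are also counted among the lipid-associated and lysosomal genes above. The part of these cells in the levels of Ptprc, Laptm5 and the other leukocyte-wide genes was not tested.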

How the data were processed

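Polyadenylated RNA of 12 libraries was sequenced with an unstranded kit from 1 ug of RNA, per the labels' protocols. STAR and limma were used with mm10 (GRCm38), per the submitters' processing notes, with no versions given. The authors deposited log2 values of CPM for 30389 genes, all starting from a floor of -6.71. With the floor removed, 100% of values were whole multiples of 1 step within 0.01 and were read as numbers of reads. In piece 1 of anomaly animal 1, 7573 genes stood at 1 step and 1354 at 2 steps, so its steps may not be reads as sequenced. The implied library sizes differed from the read totals by composition factors, 1.28 to 1.90 for anomaly and 0.636 to 0.715 for normal libraries.

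For the comparison of groups, each animal was represented by the mean of log2(CPM + 1) over its pieces. Genes reaching a mean of 1 CPM in either group, 14687 in all, entered a limma 3.58.1 fit (R 4.3.3, mean-variance trend, no robust option), with Benjamini-Hochberg adjustment and a threshold of 0.05. The design allowed for counts or normalised values, and limma was used because the table holds log2 values. Animals within a group were compared by limma on single libraries. Gene coordinates and exon lengths are from the GENCODE annotation of GRCm38. The pipeline was tested on simulated data. The genes, lists and tests were chosen with earlier results of these data known. Values are given, per role, for the 2 genes with the smallest p and for those not called, and for up to 4 genes per further list plus those against its direction. Cd14 and Clec4d are given outside this rule, and they differed widely between anomaly animals. Spi1, Il1b, Il34, Rac1 and Ly6g were named after their values were seen. Alternatives were other scalings, filters, pseudocounts, pieces alone, a random block per animal, voom, a stricter threshold and leaving out each animal. The comparison of anomaly animals 1 and 2 with animal 1 by piece 2 alone, and the lists by that piece or with library totals alone, were added after the data were seen. One gene of a further list is not reported here. Piece numbers did not pair the samples. The number of reads limits the precision of values near 1 CPM.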

Additional observations from a re-analysis of the deposited data

Results flagged for a closer look

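In 4 of 76 groups of 6 libraries tested, 1 library lay far from the others by Dixon's criterion. For 6 independent libraries chance flags about 1 in 20 groups. Libraries here come in pairs from the same animal, so that rate need not hold. Marco was at 37.7 CPM in lesion 2 of anomaly animal 2, where the next library had 1.96 CPM. Marco was also at 1.08 CPM in piece 1 of normal animal 1, with the next at 0.293 CPM. Csf1 was at 20.8 CPM in piece 1 of normal animal 2, with the next at 12.8 CPM. Chil3 was at 0.647 CPM in piece 1 of normal animal 3, with the next at 0.17 CPM. Their causes were not tested.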

How the results depend on the processing

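Over 20 alternatives, 696 of 756 gene values kept direction and side of the threshold, 48 lost a call, 4 gained one and 8 changed sign, and 21 of 33 called genes were called in every alternative. Gpnmb lost its call in 11 alternatives, Clec4d in 9, Siglec1 in 8 and Mrc1 in 5. The count of called genes, 33, ran from 25 (voom, or adjusted p under 0.01) to 35, and from 26 to 35 when 1 animal was left out. With the animal as a random block it was 34, also with the piece number as a replicate block, where Arg1 gained a call; the block changed no other call. Deviations of same-numbered pieces correlated at -0.20 to 0.16 between animals. With library totals alone, all genes split into 8962 higher and 1850 lower with a median log2 fold change of 0.97, with recomputed trimmed means into 3743 and 6006 with -0.33, against 4765 and 4553 with 0.09 as reported; 33 of the 38 genes were higher and 0 lower in each. Cd163 was 0.98 with library totals alone, 0.13 with a pseudocount of 4, 0.10 with voom, 0.60 by piece 2 alone, and from -0.82 to 1.02 when 1 animal was left out, with 0.42 without normal animal 2. Timd4 was 0.034 with library totals alone and 0.36 by piece 2 alone. The count differing among anomaly animals ran from 6 to 28 when 1 animal was left out, and that among normal animals from 0 to 1 (Csf1r, without anomaly animal 2). Relative to the macrophage markers, 1 gene lay higher with the leukocyte-wide yardstick (Mpeg1), 1 with a pseudocount of 0.25 (Ms4a7), and 0 to 2 when 1 animal was left out (Laptm5 and Fcer1g without anomaly animal 1), and 10 (pseudocount of 0.25, without Siglec1 and Marco) to 20 lay lower. The causes were not tested.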
